A study of Homo sapiens with 2 samples.

Results

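The replication-dependent histone genes lie in gene clusters, and their symbols in the tables start with HIST1H, HIST2H, HIST3H or HIST4H. They encode the core histones H2A, H2B, H3 and H4, which form the protein spool of the nucleosome, and the linker histone H1, which binds the DNA where it enters and leaves the spool. All symbols with these starts were taken, 73 of the 23686 genes in the tables: 6 of H1, 18 of H2A, 20 of H2B, 14 of H3 and 15 of H4. HIST1H2APS1, HIST2H2BA and HIST2H2BC are annotated as pseudogenes in RefSeq or GENCODE and were kept, since the choice was made by symbol alone. The symbols are the older ones of the family: RefSeq now names HIST2H2BE as H2BC21 and HIST1H2BK as H2BC12.

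The RNA came from A427, an established human non-small cell lung carcinoma line kept in RPMI medium with serum. The labels give its genotype as WT, whereas the series title calls the cells CTNNB1-mutated. One library was made from adherent cells and 1 from floating, sphere-forming cells, which were collected apart, and the labels name no agent for either. With 1 library of each growth form, every ratio compares these 2 libraries and has no replicate check. The libraries held 26384670 (adherent) and 27148842 (floating) gene-assigned reads. Epithelial EPCAM, KRT8 and KRT18 were abundant, whereas CDH1 stood at 18.85 (adherent) and 13.94 TPM (floating) and KRT19 had at most 22 reads. Mesenchymal VIM was abundant too, at 5264 and 4850 TPM, but FN1 stood at 5.7 and 4.85 TPM and CDH2 at 2.81 and 1.88. The lung markers NKX2-1, SFTPB and SFTPC had at most 13 reads, and NAPSA had 29 and 21. The leukocyte gene CD3E and the endothelial gene CDH5 had 0 reads, and the leukocyte gene PTPRC had 159 and 121. The endothelial gene VWF, at 14 and 44 reads (0.13 and 0.38 TPM), was past the 2-fold call used below; the part of such markers in the results was not tested.

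Replication-dependent histone genes are transcribed mainly in S phase, when new DNA has to be packed. Their mRNAs usually carry no poly(A) tail: they end just behind a short stem-loop, which the stem-loop binding protein SLBP holds for processing, export, translation and timed decay. The KAPA mRNA kit named in the labels selects poly(A) RNA, and some of these genes also make transcripts that read on to a poly(A) signal and receive a tail. Reads from such transcripts and carry-over of RNA without a tail cannot be told apart in these tables, nor can less RNA per cell be told from fewer cells in S phase.

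In the GENCODE 29 transcripts (GRCh38, while the authors' build is hg19), a stem-loop of the form GGNNCTNNNNAGNNCC was found in 33 of the 73 members, searched on the transcript strand. The models of HIST1H1C and HIST1H2BK hold only coding sequence, so the motif could not be seen there. Models of many other members without the motif are as short, such as 381 bases for HIST1H2BM, 411 for HIST1H3A and 312 for HIST1H4A. The 33 therefore counts models that reach the element, not genes that have it. The lines below give the DNA letters of the transcript strand 5′ to 3′, with the 16 bases of the stem-loop in capitals and 5 bases on either side. They are shown for members with many reads and for 1 gene of H4, because the element marks where the mRNA without a tail ends.
HIST2H2BE: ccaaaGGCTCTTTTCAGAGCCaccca
HIST1H2BD: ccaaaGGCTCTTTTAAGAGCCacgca
HIST1H2AC: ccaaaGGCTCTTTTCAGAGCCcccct
HIST2H2AA3: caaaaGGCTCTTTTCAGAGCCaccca
HIST3H2A: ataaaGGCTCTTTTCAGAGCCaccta
HIST2H2BC: ccaaaGGCTCTTTTCAGGGCCattta
HIST2H4A: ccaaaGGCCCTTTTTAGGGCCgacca
The annotated transcript of HIST2H2BE runs on for 1729 bases past this element and ends at a poly(A) signal (AATAAA or ATTAAA within its last 50 bases), and one of HIST1H2AC runs on for 1114 bases to such a signal. The transcript of HIST2H2AA3 ends 35 bases past the stem-loop and also holds such a signal in its last 50 bases. HIST1H2BD has a transcript with the stem-loop and a second one, 789 bases long, that lacks it and ends at a signal. Of the 11 members with at least 1 CPM (reads per 1000000 of the scaled library) in at least one library, 8 had an annotated transcript ending at a poly(A) signal, against 16 of the 62 members below that level. Annotation is itself built from RNA evidence, and the short models cannot show a signal behind the coding sequence, so this is a description only.

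Histone cluster genes made up a small part of both libraries, and a few members held most of their reads. All 73 together had 2534 reads in the adherent and 2040 in the floating library, or 395.8 and 328.9 TPM (transcripts per 1000000, a level per gene length). Reads were seen for 57 members. The H2B gene HIST1H2BK alone held 36.6% of the members' reads in adherent cells (exact Clopper-Pearson 95% interval 34.7 to 38.5%) and 37.1% in floating cells (35.01 to 39.25%). HIST1H2BK, HIST2H2BE, HIST1H1C and HIST1H2BD together held 72.3% and 67.3%. By type, H2B held 69.0% of the reads in adherent and 68.0% in floating cells, H2A 13.1% and 14.0%, H1 12.8% and 11.96%, H4 3.24% and 4.31%, and H3 1.89% and 1.765%. Shares of reads favour long genes. In TPM, H2B summed to 213.7 and 178.4, H2A to 84.44 and 69.21 and H1 to 48.64 and 34.48. H4 summed to 36.57 and 37.65 TPM and H3 to 12.41 and 9.08.

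**Figure D1:**
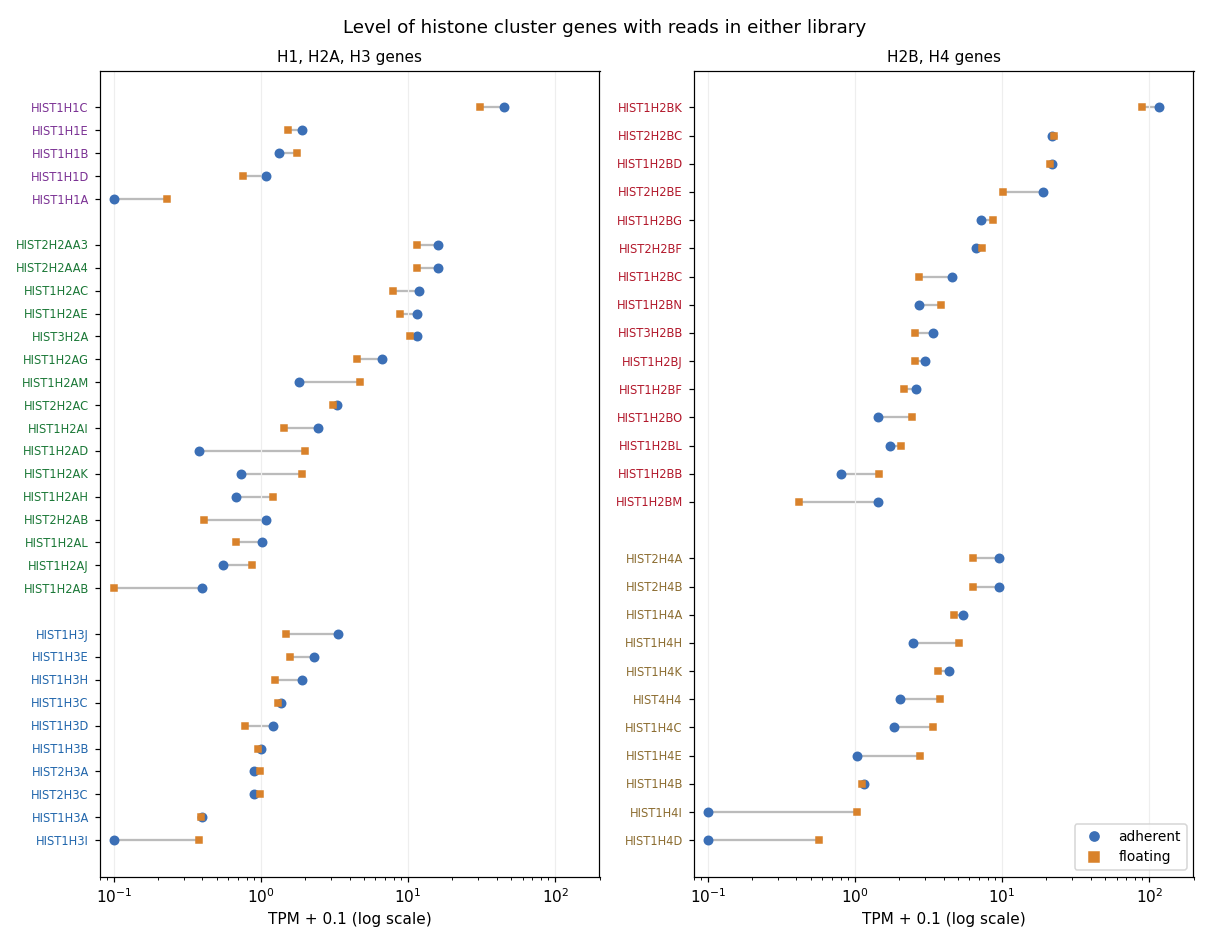
Level of each of the 57 histone cluster genes with reads in either library, as TPM + 0.1 on a log axis, with circles for adherent and squares for floating cells and labels coloured by histone type. HIST1H2BK stands highest at 116.95 and 89.71 TPM, HIST1H1C is the only H1 gene above 2 TPM, and no H3 gene exceeds 3.24 TPM.

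Summed over all members, histone cluster reads were 1.29-fold lower in the floating than in the adherent library (95% interval 1.21 to 1.36, exact and for counting error only). No member was past the rule for a call, at least 2-fold with an interval that excludes no difference: 0 of the 11 members of at least 1 CPM, against 2.03% of the 13131 genes compared (1.28% higher and 0.754% lower in floating cells). The median log2 ratio of floating over adherent was -0.36 over the 11 members, against -0.005 over all compared genes. Ratios lay below 0 for 9 of the 11, where 6680 of all 13131 compared genes had such a ratio. The 9 include the copies HIST2H2AA3 and HIST2H2AA4, which are not separate measurements. Intervals lay below 0 for 3 of the 11, where 25.6% of all compared genes had such an interval, and above 0 for none, where 25.5% had one. The count of 3 in 11 is close to that background, but this is not a like comparison. Those 3 are the members with the most reads, and few reads give wide intervals. HIST2H2AA3 and HIST2H2AA4, copies given equal estimates, count here as 2 intervals that include 0. Their summed reads gave a log2 interval of -0.84 to -0.07. The other 62 members, all under 1 CPM, had 304 and 314 reads in sum, a log2 ratio of -0.002 (-0.23 to 0.23). With no filter the median over the members with reads was -0.07, and the lower median describes the abundant members.

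**Figure D2:**
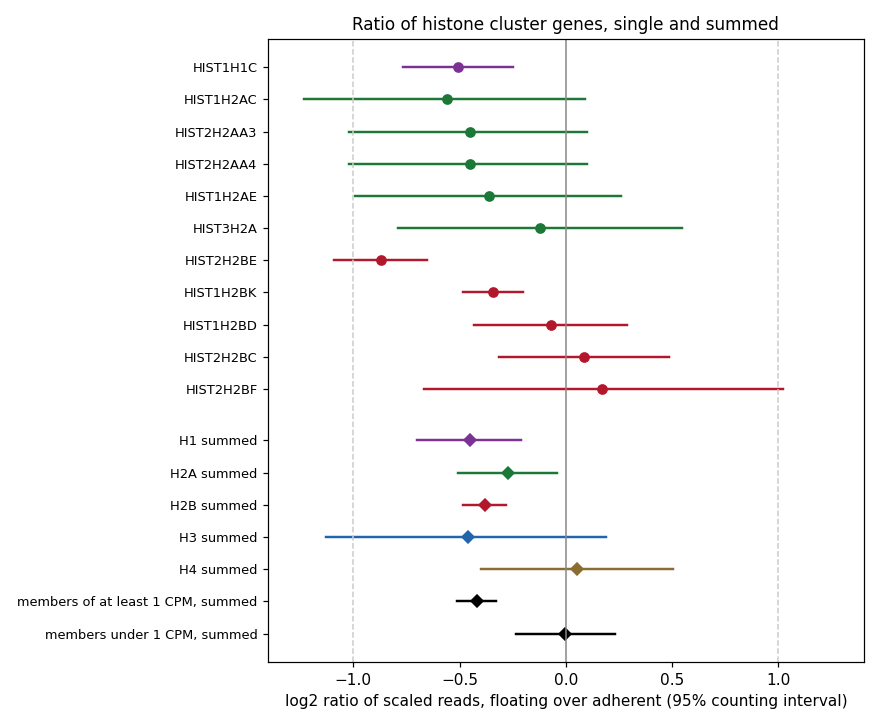
Log2 ratio of scaled reads, floating over adherent, with its 95% counting interval as a line. Circles are the 11 members of at least 1 CPM and diamonds are sums, by type in colour and by abundance in black; dashed lines mark 2-fold. HIST2H2BE lies farthest from 0 at -0.87, and the members under 1 CPM sum to a ratio near 0.

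Among H1 genes, HIST1H1C encodes the linker histone H1.2, 1 of the somatic H1 subtypes. In the tables it had 294 reads in adherent and 214 in floating cells, at 44.64 and 30.59 TPM, a 1.42-fold lower level in the floating library (interval 1.19 to 1.70). Its estimates are whole numbers, and none of its 50-base windows in GENCODE 29 occurred in another gene. The other somatic subtypes were near the limit of detection: HIST1H1E had 13 and 11 reads, HIST1H1B 9 and 13, HIST1H1D 7 and 5, and HIST1H1A 0 and 1. In sum, the 5 H1 genes other than HIST1H1C had 29 and 30 reads, with a log2 interval of -0.79 to 0.79. The lower sum of H1, 1.37-fold (1.16 to 1.62), thus rests on HIST1H1C. HIST1H1T, the H1 of male germ cells, had 0 reads in both libraries.

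All 5 H2A genes of at least 1 CPM had ratios below 0, and each single interval included 0. The median of -0.45 is the value shared by the copies HIST2H2AA3 and HIST2H2AA4, which are not separate measurements. HIST1H2AC had 50 and 35 reads (log2 ratio -0.56, interval -1.23 to 0.09), and HIST1H2AE 51 and 41 (-0.36, -0.99 to 0.26). HIST3H2A, from the small cluster on chromosome 1, had 41 and 39 reads (-0.12, -0.79 to 0.55). HIST2H2AA3 and HIST2H2AA4 are near-identical copies, and the authors' estimates gave each the same number, 65.39 reads in adherent and 49.45 in floating cells. For the pair, counted together, the 131 and 99 reads gave a 1.37-fold lower level in floating cells (1.046 to 1.796), and at 31.94 and 22.82 TPM it was the most abundant H2A product. Summed over all 18 genes, H2A was 1.21-fold lower (1.03 to 1.42). Without HIST2H2AA3, but with its copy HIST2H2AA4 kept, the interval of that sum reached from -0.50 to 0.02 on the log2 scale.

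The H2B genes of at least 1 CPM had ratios on both sides of 0. HIST2H2BE had 478.57 reads in adherent and 271.32 in floating cells, at 18.88 and 10.03 TPM, or 1.83-fold lower in the floating library (1.57 to 2.13), the member farthest from 0 among those of at least 1 CPM. HIST1H2BK had 927.75 and 756.61 reads, at 116.95 and 89.71 TPM, or 1.27-fold lower (1.15 to 1.398). In GENCODE 29, 74.1% of its 50-base windows occurred in another gene and 22.6% in another histone cluster gene, and its estimates carry decimals. HIST1H2BD, whose transcript without a stem-loop is described above, had 132 and 130 reads (log2 ratio -0.07, interval -0.43 to 0.29), so the libraries differed by less than the counting error. The transcribed pseudogene HIST2H2BC had 102 and 112 reads (0.09, -0.31 to 0.49), and its ratio was -0.04 once the trend over gene length was removed. HIST2H2BF passed 1 CPM only through the floating library, with 23.65 and 27.59 reads (0.17, -0.67 to 1.02). All 20 genes together had a log2 ratio of -0.38 (-0.49 to -0.28), and without HIST1H2BK one of -0.43 (-0.58 to -0.28). With the H2B genes whose estimates are whole numbers in both libraries, which leaves out HIST1H2BK and HIST2H2BE, the log2 ratio of the sum was -0.0798 (-0.38 to 0.22).

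No single H3 or H4 gene reached 1 CPM. The 14 H3 genes had 48 reads in adherent and 36 in floating cells in sum (log2 ratio -0.46, interval -1.13 to 0.19), led by HIST1H3J with 11 and 5 and HIST1H3D with 9.95 and 6.45. The 15 H4 genes had 82 and 88 reads (0.05, -0.40 to 0.50). The copies HIST2H4A and HIST2H4B shared 45 and 31 reads equally (log2 interval -1.30 to 0.11). Counted together, at 18.96 and 12.42 TPM, the copies passed 1 CPM in both libraries (about 26.3 and 27.2 reads). They fall under it only because their reads were divided. HIST1H4H had 5 and 11 reads, HIST4H4 5 and 10 and HIST1H4C 4 and 8, whereas HIST1H4A had 11 and 10 and HIST1H4K 8 and 7. With whole-number estimates only, which drops that pair, the H4 sum had a log2 ratio of 0.57 (-0.05 to 1.21). At this depth, no difference between the 2 libraries beyond counting error was seen for the H3 or H4 sum.

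After the H4 pair, HIST1H2BG (21 and 27 reads, just short of 1 CPM) and HIST1H2AG (24 and 17) had the most reads among members under 1 CPM. In that group 21 members had more reads in floating, 20 more in adherent cells, 5 equal numbers and 16 none in either. HIST1H2AM (6 and 17 reads, log2 ratio 1.38, interval 0.04 to 3.08) and HIST1H2AD (1.05 and 7.55 reads) were the 2 whose intervals lay above 0, and both were picked out after their values were seen. Of the 50-base windows of HIST1H2AM, 86.3% occurred in other histone cluster genes in GENCODE 29. There, 98% of the 50-base windows of HIST1H2AD and 100% of those of HIST1H3D occurred in another gene, but only 2.03% of the former in another histone cluster gene. The fractional estimates of these 2 genes added up to whole numbers, 11 and 14 reads (log2 interval -0.95 to 1.58). The testis genes HIST1H1T, HIST1H2AA, HIST1H2BA and HIST3H3 had no reads at all, and a count of 0 leaves room for 0.114 CPM (adherent) or 0.1102 CPM (floating).

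Gene length in the authors' model differs within the family and bears on the counts. Reads per TPM, which are proportional to the effective length used, were 1.90 to 2.66 for H4 genes with reads and 6.75 to 7.69 for H1. HIST2H2BE stood at 25.9 and HIST1H2BK at 8.15, whereas most H2B genes were near the type's lowest value of 2.86. HIST1H2AC stood at 4.35, although its longest GENCODE 29 transcript has 1668 bases, against 2194 for HIST2H2BE. Whether the authors' gene model or their assignment of reads to isoforms gave the lower value was not tested. Short genes also ran higher in the floating library: the 657 compared genes with at most 9.7 reads per TPM, the range that holds 10 of the 11 abundant members, had a median log2 ratio of 0.12. With the length trend removed, a calculation added after the data were seen, the members' median was -0.49.

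Cluster of origin was also compared. The 56 genes of HIST1, the large cluster on chromosome 6, had 1680 and 1425 reads, 1.22-fold lower in the floating library (1.14 to 1.31). The 13 genes of HIST2 on chromosome 1 had 798 and 558, 1.48-fold lower (1.33 to 1.65). HIST2H2BE gave 479 and 271 of the HIST2 reads. The 3 genes of HIST3 had 51 and 47 reads.

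The list of 8 members known from earlier work to make polyadenylated transcripts (HIST1H1C, HIST1H2AC, HIST1H2BC, HIST1H2BD, HIST1H2BJ, HIST1H2BK, HIST2H2BE and HIST1H4H) held 75.4% of member reads in adherent and 70.3% in floating cells. In sum these 8 were 1.38-fold lower in floating cells (1.29 to 1.48). The other 65 members had 624 and 605 reads, with a log2 ratio of -0.09 (-0.26 to 0.07). Of the 8, 3 had intervals below 0 (HIST1H1C, HIST1H2BK and HIST2H2BE), and those of the other 5 included 0, with ratios above 0 for HIST1H4H and below 0 for HIST1H2AC, HIST1H2BC, HIST1H2BD and HIST1H2BJ. Whether the 2 groups differ beyond the spread between cultures was not tested. Other RNAs that carry no tail were also counted, although how far they stand for carry-over of histone mRNA was not tested. Of the 13 such genes found, 6 had reads, with 49 in adherent and 44 in floating cells (log2 interval -0.83 to 0.41). Of these, SCARNA7 alone reached 1 CPM, with 29 and 22 reads (-0.44, -1.32 to 0.40). Their part in the histone ratios was not tested.

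Many H2A and H2B genes lie head to head and are transcribed away from a shared promoter. In GENCODE 29, 13 pairs of members started within 1000 bases of each other in this arrangement, 12 of them an H2A and an H2B gene. In several pairs the partners stood far apart in level. HIST1H2BK, at 116.95 and 89.71 TPM, is paired with HIST1H2AH at 0.58 and 1.10 TPM (2 and 4 reads). HIST2H2BE, at 18.88 and 10.03 TPM, is paired with HIST2H2AC at 3.20 and 3.0 TPM (9.23 and 9.11 reads, log2 interval -1.56 to 1.46). In other pairs the H2A gene was the higher one, as for HIST1H2AC (11.78 and 7.78 TPM) over HIST1H2BC (4.49 and 2.62 TPM) and HIST3H2A (11.33 and 10.19 TPM) over HIST3H2BB (3.29 and 2.47 TPM). HIST1H2AE stood at 11.40 and 8.65 TPM beside HIST1H2BG at 7.04 and 8.59, and HIST1H2AG at 6.59 and 4.41 TPM beside HIST1H2BJ at 2.91 and 2.48. Only HIST2H2AA4 and HIST2H2BC were both at 1 CPM or more, with ratios of opposite sign whose intervals both included 0.

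**Figure D3:**
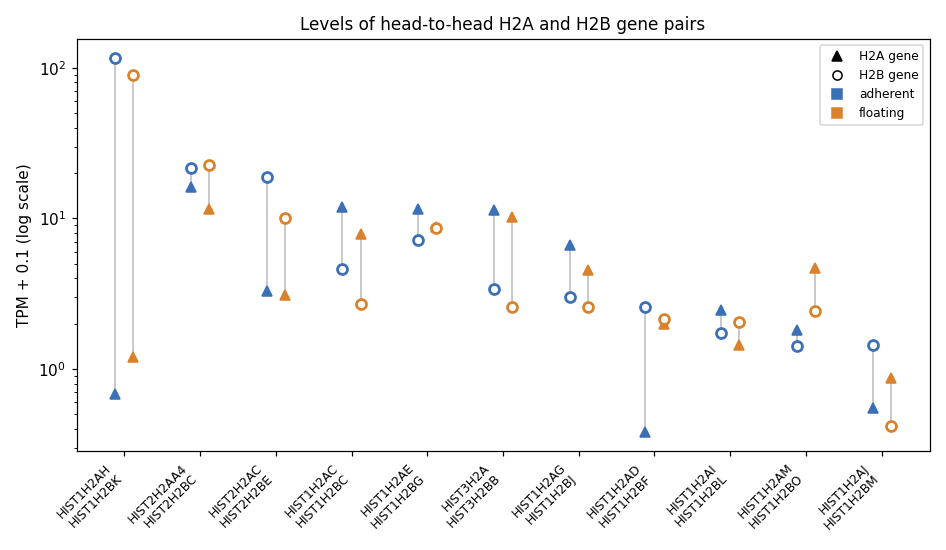
Levels of 11 head-to-head pairs of an H2A gene (triangles) and an H2B gene (open circles), as TPM + 0.1 on a log axis, in adherent (blue) and floating (orange) cells. The pair HIST1H2AA and HIST1H2BA, at 0 in both libraries, is left out. HIST1H2BK stands far above its partner HIST1H2AH, whereas HIST1H2AC and HIST3H2A stand above their H2B partners.

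Promoters are shown for the 3 members whose intervals lay below 0, since these have the best-supported ratios by counting error. The sequences are from RefSeq (GRCh38.p14), 250 bases before to 50 after the annotated start, 5′ to 3′ in the direction of transcription. Capitals mark TATAAA (the TATA box), CCAAT (the CCAAT box, bound by NF-Y) and ATTTGCAT (the octamer bound by OCT1, the product of POU2F1), each searched on both strands; overlapping matches run together.
HIST2H2BE promoter, chr1:149886633-149886932, minus strand: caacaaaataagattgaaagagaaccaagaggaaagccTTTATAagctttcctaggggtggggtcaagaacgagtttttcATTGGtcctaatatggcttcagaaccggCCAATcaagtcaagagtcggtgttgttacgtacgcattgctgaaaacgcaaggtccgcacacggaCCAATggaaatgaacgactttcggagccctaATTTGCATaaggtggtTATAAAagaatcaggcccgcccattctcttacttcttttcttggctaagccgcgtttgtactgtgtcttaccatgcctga
HIST1H2BK promoter, chr6:27146806-27147105, minus strand: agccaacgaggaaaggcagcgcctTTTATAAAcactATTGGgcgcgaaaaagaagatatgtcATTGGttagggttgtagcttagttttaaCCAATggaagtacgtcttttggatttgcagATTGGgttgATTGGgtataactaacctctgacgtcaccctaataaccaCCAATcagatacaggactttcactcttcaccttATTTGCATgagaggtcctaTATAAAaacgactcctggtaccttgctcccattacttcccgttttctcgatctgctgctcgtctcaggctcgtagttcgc
HIST1H1C promoter, chr6:26056421-26056720, minus strand: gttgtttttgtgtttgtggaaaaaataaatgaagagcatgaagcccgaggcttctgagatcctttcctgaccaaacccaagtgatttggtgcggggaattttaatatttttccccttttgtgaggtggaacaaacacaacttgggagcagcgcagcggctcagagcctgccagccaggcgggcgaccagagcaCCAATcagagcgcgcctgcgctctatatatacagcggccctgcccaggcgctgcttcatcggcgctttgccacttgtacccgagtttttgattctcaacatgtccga
Promoters were matched for 65 of the 73 members. The octamer occurred in 14 of 18 H2B and 11 of 16 H2A promoters and in none of the 6 H1, 12 H3 and 13 H4 promoters, against 1.77% of all 35116 promoters of this length. CCAAT occurred in every H1, H2A, H2B and H3 promoter matched but in 3 of 13 of H4, against 34.6% of all, and TATAAA in 43 of 65, against 11.5%. The windows of many head-to-head partners overlap, and both strands were searched, so 1 match can be counted for both genes of a pair. The octamer of HIST2H2BE, for example, is also the match counted for HIST2H2AC. The H2A and H2B counts are therefore not independent, and a match in an H2A window may lie nearer the start of its H2B partner. Among H2B promoters the octamer was in 3 of 4 of members of at least 1 CPM and in 11 of 14 of the others. A match is a string of letters and not a site shown to be bound.

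Genes that serve histone supply were read from lists of other genes, beside the background shares of 25.5% with intervals above and 25.6% below 0. Of 10 genes for transcription at histone loci, 7 had intervals below 0 and 1 above (median -0.26). NPAT, the coactivator at histone gene clusters that cyclin E and CDK2 switch on, was 1.14-fold lower (1.05 to 1.25), and CASP8AP2 (FLASH), which serves transcription and 3′ processing, 1.23-fold lower (1.16 to 1.304). HINFP, a transcription factor of H4 genes, was 1.28-fold lower (1.10 to 1.496), and cyclin E2 (CCNE2) 1.27-fold lower (1.10 to 1.47). The one higher was cyclin A2 (CCNA2), at 1.21-fold (1.16 to 1.27), which acts in S phase and G2. No gene of this list was past 2-fold.

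Processing and decay genes had no common direction. SLBP stood at 163.68 and 141.11 TPM, 1.13-fold lower in the floating library (1.07 to 1.18). In the list of 17 genes for histone 3′ processing, 3 had intervals below 0 and 8 above (median 0.05): LSM11 of the U7 particle was 1.27-fold lower (1.05 to 1.55), whereas its partner LSM10 was 1.39-fold (1.22 to 1.58) and the shared Sm protein SNRPF 1.49-fold higher (1.37 to 1.62). Of 14 general polyadenylation factors, 4 had intervals below 0 and 2 above (median -0.04). The poly(A) polymerase PAPOLA was 1.14-fold (1.11 to 1.18) and CPSF4 1.17-fold higher, and PCF11 and WDR33 were each 1.09-fold lower. Of 14 genes for histone mRNA decay, 3 had intervals below 0 and 6 above (median 0.05), with the exonuclease ERI1 1.19-fold (1.09 to 1.29) and LSM1 1.42-fold higher, LSM6 1.27-fold higher, and the uridyl transferase ZCCHC11 1.26-fold and XRN1 1.09-fold lower. For the helicase UPF1 the log2 interval of -0.10 to 0.05 included 0. LSM10, SNRPF and LSM6, like UBE2C and H2AFZ below, have at most 9.7 reads per TPM. Compared genes in that range had a median log2 ratio of 0.12, as given above, and the folds printed are not adjusted for it.

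Histone chaperones split likewise, 7 of 20 with intervals below 0 and 4 above (median -0.05). ASF1B, which hands new H3 and H4 to the replication machinery, was 1.302-fold lower (1.20 to 1.41), and the CAF-1 subunits CHAF1B and CHAF1A 1.21-fold and 1.17-fold lower. ATRX was 1.24-fold lower, NASP had an interval that included 0, and SSRP1, a subunit of the FACT complex, and the importin IPO4 were 1.20-fold and 1.19-fold higher. Lists of cell cycle genes stood on either side. For G1/S, 21 of 32 intervals lay below 0 and 2 above (median -0.10), whereas for G2/M 28 of 30 lay above 0 and none below (median 0.34). The replicative helicase subunit MCM5 was 1.42-fold lower (1.35 to 1.49) and the uracil glycosylase UNG 1.36-fold lower, whereas RFC2 and TYMS were each 1.07-fold higher. CDC20 and UBE2C, which act with the anaphase-promoting complex, were 1.54-fold (1.47 to 1.61) and 1.41-fold higher. Their part in the histone ratios was not tested.

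**Figure D4:**
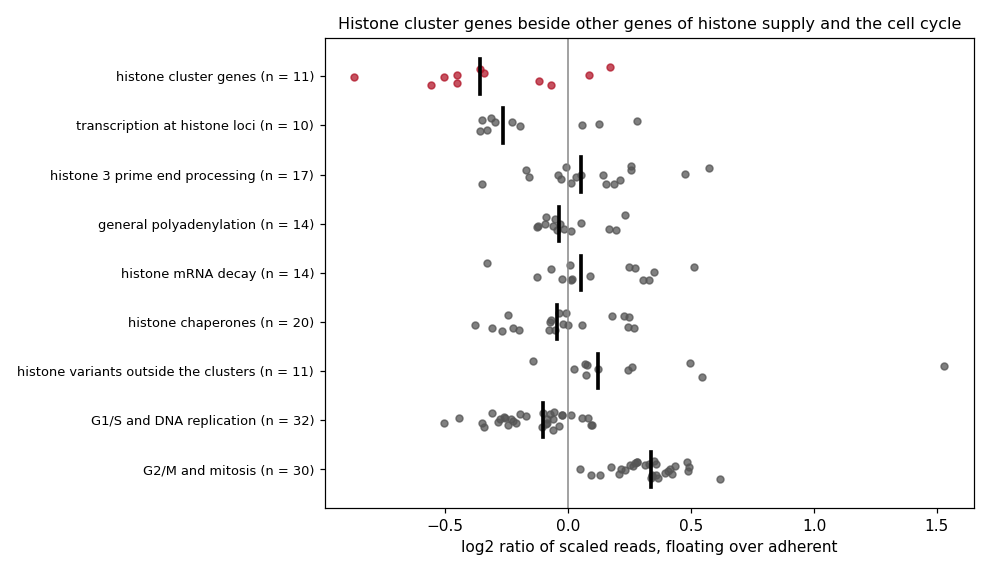
Log2 ratio of scaled reads, floating over adherent, for each gene of at least 1 CPM in the histone cluster set (red) and in 8 lists of other genes (grey), with black bars at the medians; vertical scatter within a list has no meaning. The cluster genes have a median of -0.36, genes for transcription at histone loci -0.26 and genes of G2/M 0.34.

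Histone variants are encoded outside the clusters, and many of their mRNAs have ordinary poly(A) tails. They were more abundant per length in these libraries. The 19 such genes found summed to 2521 (adherent) and 2908 TPM (floating). These sums leave out H3F3AP4, a copy that shares reads with H3F3A, at 606.31 and 515.87 TPM. Of the 11 variant genes compared, 8 had intervals above 0 and 1 below (median 0.12). With H3F3A counted together with its copy H3F3AP4, as described below, 7 lay above 0 and 2 below (median 0.08). H1F0, a linker histone of slowly dividing and differentiated cells, was 1.46-fold higher in floating cells (1.42 to 1.498), at 359.46 and 509.04 TPM, while HIST1H1C was lower. CENPA, the H3 variant of centromeres, was 1.41-fold higher (1.295 to 1.53), H2AFZ (H2A.Z) 1.20-fold (1.16 to 1.24), H3F3B (H3.3) 1.18-fold (1.15 to 1.21), H2AFX 1.09-fold (1.02 to 1.17) and H1FX 1.05-fold (1.01 to 1.08). The 1 lower gene, H2AFY2, was 1.10-fold lower (1.02 to 1.20).

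H3F3A was past the call on its own, at 2.89-fold higher (2.37 to 3.55), with 133 and 398 reads, but it shares reads with its processed copy H3F3AP4, to which the authors' estimates gave 6359 and 5759 reads. Their sum was 1.09-fold lower in floating cells (1.05 to 1.13), so the direction of H3F3A depends on how shared reads were divided.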

How the data were processed

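Poly(A) RNA of adherent and of floating A427 cells was sequenced, 1 library each. Per the submitters' processing notes, FastQC 0.11.1, STAR 2.5.3a and RSEM 1.3.3 were used with the build hg19; the annotation, settings and strandedness were not given in the sources used here. Estimated counts per gene were deposited without scaling, beside TPM, which the authors scaled per gene length and library. Both columns of each table were used and assigned by name.

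Estimated counts were rounded, after summing where genes were summed. Libraries were scaled by TMM in edgeR 4.0.16 (R 4.3.3). The log2 ratio used (count + 0.5) per effective library size, and the comparison took the 13131 genes that reached 1 CPM in either library, or about 26.3 reads in the adherent and 27.2 in the floating library. Intervals are exact Clopper-Pearson 95% intervals conditional on summed reads; reads carry no molecular identifiers, so intervals and the limit of 3 reads for a count of 0 cover counting error only. With 1 library per growth form no test, SD or p-value was possible. Estimates with decimals, which show shared reads, were 26.0% of members and 7.25% of all genes.

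The calculation was tested on simulated counts for floating over adherent with 13084 genes tested: 50 of 50 genes changed 3-fold, 50 of 50 changed 4-fold, 23 of 50 changed 2-fold and 0 of 50 changed 1.5-fold were called, as were 9 of 12884 unchanged genes. The changed genes were drawn from those with expected adherent counts above the 1 CPM level, and the counts held counting error only. These rates therefore do not cover members near or under 1 CPM, or the spread between cultures.

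Transcripts, strands and start sites came from GENCODE 29 (GRCh38) by symbol, promoters from RefSeq through gene IDs. Members and lists were chosen with earlier results of these data known. Named were all members of at least 1 CPM, those with the most reads below it, testis genes, copies and head-to-head partners of these, and in other lists a fixed set of genes, those past 2-fold and the 2 farthest from 0 on each side with an interval that excludes 0. Of members that share a protein with these, only near-identical copies are named, and no H3 sequence is shown. Other settings tried were scaling by the upper quartile, by library totals and by size factors of DESeq2 1.42.0, log2(TPM + 0.1), a prior count of 5, other filters and fold thresholds, members with whole-number estimates and, added after seeing the data, removal of a length trend over 20 bins and H3F3A left out or summed with H3F3AP4. Python 3.11.15 with numpy 2.4.6, pandas 2.3.3 and scipy 1.17.1 was used.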

Additional observations from a re-analysis of the deposited data

How the results depend on the processing

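The log2 ratios of the 11 abundant members kept their sign under the 6 alternatives that can change a single gene's value, except HIST2H2BC, at -0.04 with the length trend removed, and HIST1H1C, HIST1H2BK and HIST2H2BE kept intervals below 0 under all 4 scalings. Medians of the members and of the 9 other lists kept their sign under every alternative run for them. For histone variants outside the clusters the median of 0.12 was 0.0997 without H3F3A and 0.0765 with it summed with H3F3AP4, both chosen after seeing the data. Members past the rule numbered 2 higher with no filter (HIST1H2AD and HIST1H2AM) and 1 lower at 1.5-fold (HIST2H2BE), against 0. Over all genes, 286 were higher and 164 lower without a filter, 64 and 41 from 5 CPM up, and 426 and 381 at 1.5-fold. The log2 ratio of all members in sum was -0.36, or -0.27 on TPM and -0.24 with whole-number estimates; for H2B it was -0.38, or -0.26 and -0.0798, and for H4 0.05, or 0.57 with whole-number estimates. These estimates leave out HIST1H2BK, HIST2H2BE and the H2AA and H4 copies, while TPM weighs short genes more. No paired analysis was possible because there is 1 library per growth form, and for the same reason no library could be left out. Depth limits all statements on H3, H4 and the members under 1 CPM.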
